A study of Mus musculus with 19 samples.

Results

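The comparison of 24 h with 18 h of culture covers the last interval of the first day in culture of mouse hepatic stellate cells (HSCs). It uses every library labelled 18 h (3 samples, M1, M2 and M3) and every library labelled 24 h (2 samples, M1 and M2), which makes 5 of the 19 samples of a time course at 0, 3, 6, 12, 18, 24 and 96 h. The 3 samples of 12 h serve as a second reference. All cells came from healthy, untreated male Balb/c mice of 23 to 24 weeks and were sorted by ultraviolet positivity, the autofluorescence of their retinoid stores. Cells went from the sorter onto collagen coated 24-well plates in DMEM with 10% fetal bovine serum, 1% penicillin-streptomycin and 1% glutamine, at 37 °C and 5% CO2. The medium was replaced at 3 h and at 24 h, and whether the 24 h cells were collected before or after that change is not given in the sources used here. Each sample stands for 2 technical repeats. The labels give M1 and M3 1 isolation date and M2 a later one, and they do not say whether M1, M2 and M3 are separate animals, so p-values measure the spread between these samples only. The groups compared are cultures on coated plastic without other liver cells, and no M3 sample at 24 h was analysed here.

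HSCs are the pericytes of the liver sinusoid. In health they store vitamin A and deposit little matrix, and after injury they turn into contractile, collagen-secreting myofibroblasts. Plating them on a stiff surface with serum starts a comparable activation. Early activation involves immediate early transcription factors, chemokines under NF-kB, amino acid supply genes under ATF4 and the synthesis of new ribosomes. Contractile proteins and fibrillar collagens are features of the later myofibroblast. In this time course the summed immediate early genes were highest in fresh cells. The sum of a list of fibrillar and interstitial collagens was also higher there than at 96 h, but its members differed. The collagen XIV gene Col14a1 was higher in fresh cells, and the collagen I gene Col1a1 was higher at 96 h. Control by NF-kB or ATF4 was not tested.

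The measurement was 3′ end RNA sequencing, in which each count is 1 read assigned to a gene. The 18 h libraries held 3662234, 5261472 and 4965418 counts in M1, M2 and M3, and the 24 h libraries held 4116614 and 6979382 in M1 and M2. Levels are given as CPM (counts set relative to library size after TMM scaling, a correction for library composition), and 3 counts, the floor used here, equal at most 0.731 CPM at 18 h and 0.644 CPM at 24 h. The libraries were noisy: pairwise Pearson correlations of log2 CPM over genes were 0.802 to 0.844 within a time and 0.79 to 0.833 between the times, ranges that overlap. In 1040 of the 15138 genes tested (6.87%) a library stood at 0 beside a library of the same time at 20 CPM or more. More genes had a count at 24 h (14010 and 13155) than at 18 h (11990, 11060 and 12848). Of 10 HSC markers, 8 had counts in all 5 libraries, while Hand2 was at 0 in 18 h M1. The summed level of these markers was 2591, 2154 and 2500.2 CPM at 18 h and 1822 and 1807 CPM at 24 h, against a mean of 28292 CPM in fresh cells. Dcn made up most of that sum (2079, 1525 and 1679 CPM, then 1286 and 1099 CPM), and of the 10 markers 6 had a fitted difference above 0 and 4 below. Markers of sinusoidal endothelium summed to 814, 327 and 323 CPM at 18 h and 627 and 299 CPM at 24 h, higher in both M1 libraries. Hepatocyte markers summed to 47.04, 20.2 and 202 CPM and then 60.3 and 75.5 CPM. Kupffer cell and leukocyte markers stayed between 14.9 and 53.6 CPM with Adgre1, Cd68, Marco, Vsig4, C1qb, C1qc and Cd5l at 0, lymphocyte markers had no count, and Krt19, Krt7, Epcam and Sox9 of the cholangiocytes had none either. Markers of portal fibroblasts and smooth muscle cells summed to 5.61, 4.39 and 9.50 CPM and then 21.2 and 10.3 CPM. The part of these cell types and of the number of genes detected in the results below was not tested.

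Few single genes separated 24 h from 18 h beyond the spread of the whole series. A gene was called when edgeR's quasi-likelihood F test gave a Benjamini-Hochberg adjusted p under 0.1 and the level differed more than 2-fold. By that rule 6 genes passed (0.0396% of those tested), of which 2 rose (0.0132%) and 4 fell (0.0264%). At an unadjusted p below 0.05 stood 1027 genes (6.78%), 660 higher (4.36%) and 367 lower (2.42%). Among the 6725 genes of at least 20 CPM on average, the fitted difference was above 0 in 49.1% and below 0 in 50.7%. All samples of 24 h lay above all samples of 18 h in 1813 genes (12.0%) and below them in 1244 (8.22%). The count of calls depended strongly on the test: DESeq2 called 159 higher and 108 lower, including all 6 genes of edgeR, and in 28 and 44 of its calls the 2 groups overlapped. A fit of the 5 samples alone called 0 genes in each direction, with 404 and 323 at an unadjusted p below 0.05. With the M number as a block, 1 gene rose and 1 fell. In bulk RNA, fewer cells of a type and less RNA per cell cannot be told apart.

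The 2 genes that rose, Mxra8 and Aard, had no count in any 18 h library and counts in both 24 h libraries. Mxra8 (ENSMUSG00000029070, chr4:155839680-155844088, plus strand, GRCm38) encodes an adhesion protein that some alphaviruses use as an entry receptor. It stood at 0 CPM in all 3 libraries of 18 h and at 19.95 and 17.1 CPM (93 and 133 counts) in M1 and M2 at 24 h, at least 25.3-fold higher against a floor of 3 counts per library (edgeR adjusted p = 0.0326). Fresh cells held 394 ± 9.41 CPM (SD, n = 2), the 12 h libraries 0, 6.11 and 2.54 CPM and the 96 h libraries 134 ± 24.9 CPM (SD, n = 3). The gene was thus high at both ends of the course and at or near 0 at 12 h and 18 h. Aard (ENSMUSG00000068522, chr15:52040107-52045722, plus strand) had the same shape: 0 CPM at 12 h and 18 h in every library, 6.44 and 5.53 CPM (30 and 43 counts) at 24 h, and means of 111 CPM in fresh cells and 26.3 CPM at 96 h. Its level at 24 h was at least 8.18-fold above the 18 h floor (edgeR adjusted p = 0.0326). Mxra8 overlaps 1 annotated gene on the other strand, and whether counting used the strand is not given in the sources used here, which applies to every overlapping gene below. Under the block, Mxra8 kept an edgeR adjusted p of 0.0877 and Aard did not pass, at 0.144.

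Of the 4 genes that fell, Col14a1, Sar1a and Bud13 are described here; Col14a1 is a matrix gene of the fresh cell, and Sar1a and Bud13 are genes of general cell function. Col14a1 (ENSMUSG00000022371, chr15:55307750-55520803, plus strand) encodes collagen XIV, a collagen that decorates the surface of fibrils. It held 130.4, 187 and 194 CPM in M1, M2 and M3 at 18 h and 64.6 and 44.4 CPM in M1 and M2 at 24 h. Both 24 h values lay below all 18 h values, 3.14-fold lower in the mean (log2 fold change -1.65 ± 0.25 SE, edgeR adjusted p = 0.0326). The decline had begun earlier: fresh cells had 2254 CPM, the 12 h libraries 322, 444 and 525 CPM, and the level at 96 h was 132 ± 3.34 CPM (SD, n = 3). Col14a1 overlaps 3 annotated genes, 3 of them on the other strand.

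Sar1a (ENSMUSG00000020088, chr10:61680299-61693297, plus strand) encodes the GTPase that starts the coat of vesicles leaving the endoplasmic reticulum. Its levels were 245, 172 and 220.1 CPM at 18 h and 30.5 and 37.5 CPM at 24 h, with no overlap and a mean 6.23-fold lower (log2 -2.64 ± 0.45, edgeR adjusted p = 0.0765). At 96 h the mean was 157 CPM, between the levels of the 2 times. Bud13 (ENSMUSG00000032077, chr9:46283008-46299110, plus strand), part of a complex that retains unspliced RNA in the nucleus, held 16.3, 4.74 and 13.03 CPM (67, 27 and 70 counts) at 18 h and no count at 24 h. That is at least 17.7-fold lower against the floor of 3 counts per library (edgeR adjusted p = 0.0837). Col14a1 kept its call under the block (edgeR adjusted p = 0.0877), whereas Sar1a (0.2) and Bud13 (0.205) did not. Without 24 h M2, none of these 3 genes passed (edgeR adjusted p = 0.331 for Col14a1 and Sar1a and 0.399 for Bud13), and without 24 h M1, Sar1a (0.534) and Bud13 (0.364) did not.

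**Figure D1:**
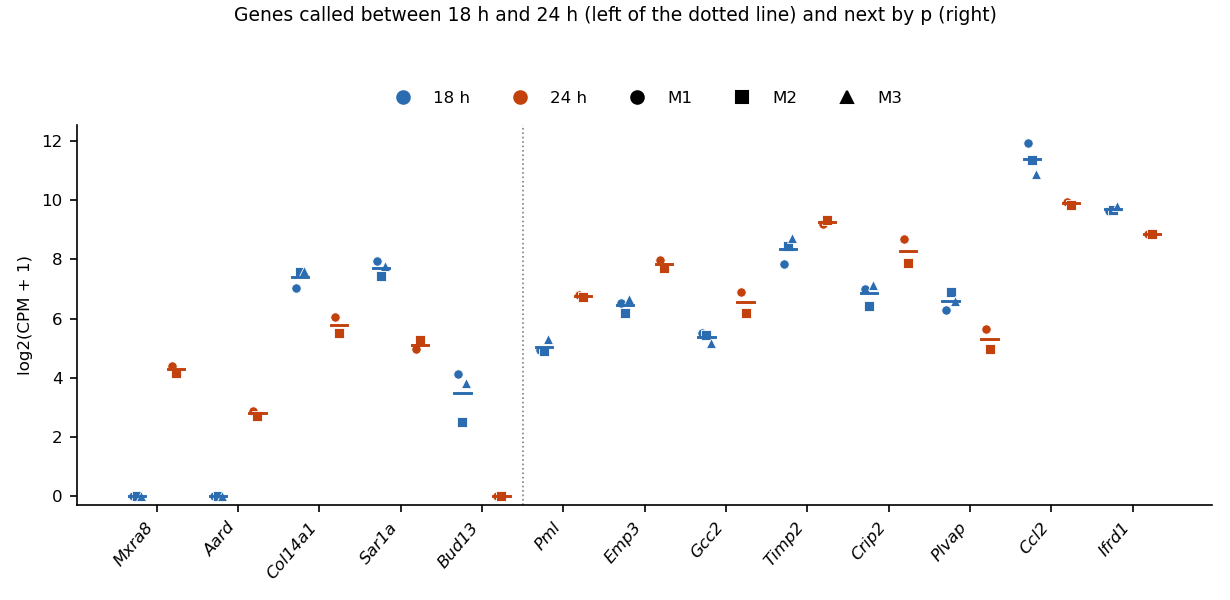
Level of each gene in each 18 h (blue) and 24 h (orange) library as log2(CPM + 1), with circles for M1, squares for M2, triangles for M3 and a bar at the mean of the logs. The 5 called genes shown stand left of the dotted line with Mxra8 and Aard at 0 at 18 h and Bud13 at 0 at 24 h. On the right stand uncalled genes with a small p, chosen from those whose 2 times do not overlap.

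Further genes were taken in order of p from those of at least 20 CPM whose 2 groups did not overlap. None of them passed the adjusted threshold, and their lack of overlap was a condition of the choice. Pml, the scaffold of a class of nuclear bodies, stood at 29.5, 29.1 and 38.4 CPM at 18 h and 110.3 and 104 CPM at 24 h (log2 1.73 ± 0.34, edgeR adjusted p = 0.168). Timp2, an inhibitor of metalloproteinases, held 227, 350.4 and 419 CPM and then 588 and 641 CPM (log2 0.89 ± 0.21, edgeR adjusted p = 0.371). Crip2, a LIM domain protein, held 127, 85.6 and 139.8 CPM and then 415 and 233 CPM. The tetraspan membrane protein gene Emp3 (91.6, 71.1 and 99.8 CPM, then 248 and 206 CPM) and the golgin gene Gcc2 (44.1, 42.99 and 35.01 CPM, then 119 and 72.5 CPM) also lay on the upper side. On the lower side stood Ccl2, the chemokine that attracts monocytes, with 3894, 2594 and 1878 CPM at 18 h and 982 and 905 CPM at 24 h (log2 -1.56 ± 0.30, edgeR adjusted p = 0.168). Plvap, which forms the diaphragms of fenestrae, held 77.3, 118 and 94.8 CPM and then 48.9 and 30.2 CPM (log2 -1.29 ± 0.24). Ifrd1, a transcriptional co-regulator, varied little within a time: 795, 812 and 883 CPM at 18 h and 461 and 466 CPM at 24 h (log2 -0.84 ± 0.16).

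Gene groups were described by how many of their tested members had an unadjusted p below 0.05 in each direction, against 4.36% higher and 2.42% lower among all genes, and by the median log2 fold change, which was 0 over all genes tested. Counts of members whose 2 groups did not overlap stand against 8.22% of all genes lower and 12.0% higher. Counts within both M1 and M2 stand against 18.0% of all genes lower and 28.2% higher. Members too low to be tested were left out, and the number listed is given where it was larger. Of all list members below, 2 passed the adjusted threshold between 18 h and 24 h, Col14a1 among them.

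The chemokine, cytokine and NF-kB feedback genes were among the lists with the lowest medians. Of 26 tested (29 listed), 10 were lower at 24 h with p below 0.05 and 1 was higher, and the median log2 fold change was -0.91. In 13 members both 24 h samples lay below all 18 h samples, against 8.22% of all genes, and 2 lay above. Within M1 and within M2 alike, 18 of the 26 were lower at 24 h, against 18.0% of all genes. The summed level was 19503, 15671 and 15088 CPM in M1, M2 and M3 at 18 h and 11421 and 10736 CPM in M1 and M2 at 24 h, without overlap. Cxcl1, a neutrophil chemokine, held 3399.6, 1939 and 2026 CPM at 18 h and 1299 and 774 CPM at 24 h (log2 -1.24 ± 0.43, edgeR adjusted p = 0.631). Ccl7, a second monocyte chemokine, held 353, 396 and 328 CPM and then 145 and 119 CPM (log2 -1.45 ± 0.40), and the leukocyte adhesion gene Vcam1 133, 154 and 215 CPM and then 98.1 and 102 CPM. Cxcl12, the homeostatic chemokine of stromal cells, lay apart from these, at 3775, 4185 and 5108 CPM and then 4777 and 5115 CPM, and its groups overlapped. The count of 10 was 5 without either 24 h library, 6 without 18 h M2 and 6 when libraries were scaled by size alone. The median stayed between -0.95 and -0.70 over the 14 alternatives. It was the lowest of the pathway lists with all 5 samples, but not without some of the libraries. Without 18 h M1, ATF4 target genes (-0.90) and tRNA synthetase genes (-0.84) lay below it (-0.83). Without 24 h M2, circadian genes (-1.09), tRNA synthetase genes (-0.96) and ATF4 target genes (-0.85) lay below it (-0.81).

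Many genes of this list are known targets of NF-kB, so their promoters were searched on both strands for an NF-kB motif, read as GGG, then any 2 bases, then TTTCC. RefSeq promoter windows (GRCm38.p6, 250 bases before to 50 after the start site) were at hand for 18 members, of which 7 held the motif: Nfkbia, Nfkb2, Tnfaip3, Cxcl1, Cxcl2, Il6 and Csf1. Among all 27025 symbols with a window, 1.89% held it. The list was assembled in part as targets of this factor, so the share describes the list and not the time point. The Cxcl1 window is shown because that chemokine had a large difference, with the 2 matches in capitals, the downstream one beginning 71 bases before the start site (chr5:90891150-90891209, plus strand).
Cxcl1: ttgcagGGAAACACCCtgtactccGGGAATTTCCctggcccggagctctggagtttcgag

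The immediate early genes, transcription factors and feedback regulators switched on within minutes of a stimulus, also lay mostly lower. Of 26 tested, 6 were lower with p below 0.05 and 1 higher, and the median was -0.68. Wholly below the 18 h samples lay 13 (8.22% of all genes) and wholly above them 1 (12.0%). Their summed level was 3829, 5121 and 4662 CPM at 18 h and 2980.4 and 3360.4 CPM at 24 h. The count of 6 rested on 24 h M1, since it was 1 without that library, and it was 11 without 18 h M1. Jun, a subunit of AP-1, held 369, 421 and 547 CPM and then 259 and 366 CPM (log2 -0.51 ± 0.22). Fos, its partner, was already low, at 3.66, 3.68 and 8.19 CPM and then 2.15 and 2.57 CPM, after 2738 CPM in fresh cells. Klf6, used by the study as a marker of initiation, held 1028, 1483 and 1221 CPM at 18 h and 729 and 922 CPM at 24 h (log2 -0.59 ± 0.29, edgeR adjusted p = 0.72). Both 24 h values of Klf6 lay below all 18 h values. Egr2 held 11.5, 28.3 and 6.14 CPM at 18 h and 0.644 and 0 CPM, 3 and 0 counts, at 24 h.

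Genes of amino acid supply and of protein synthesis lay lower at 24 h, while those of the ribosome itself lay slightly higher. ATF4 is the transcription factor that answers amino acid shortage, and tRNA synthetases load amino acids onto tRNA. Of 20 tRNA synthetase genes tested (38 symbols listed, older and newer names of the same genes, of which the table holds 20), 7 were lower with p below 0.05 and 0 higher, and the median was -0.72. Within both M1 and M2, 15 were lower (18.0% of all genes) and 0 higher (28.2%). Of 23 ATF4 target genes tested (22 symbols, 1 with 2 identifiers), 4 were lower and 0 higher, and the median was -0.72 as well. Within both M1 and M2, 16 of them were lower (18.0% of all genes). The summed level of the synthetases was 5045, 6443 and 5582 CPM at 18 h and 3057 and 4119 CPM at 24 h, and that of the ATF4 targets 4119, 5993 and 5034 CPM and then 2925 and 3534 CPM. In both lists all 24 h sums lay below all 18 h sums. Eprs, which loads glutamate and proline, held 555, 543 and 488 CPM at 18 h and 259 and 281 CPM at 24 h (log2 -0.97 ± 0.24, edgeR adjusted p = 0.389). Tars, for threonine, held 520.3, 593 and 682 CPM and then 265 and 358 CPM (log2 -0.94 ± 0.25), and Nars, for asparagine, 1222, 1352 and 1121 CPM and then 589 and 870.2 CPM (log2 -0.75 ± 0.24). Among the transporters, Slc7a1, which carries cationic amino acids, held 394, 467 and 400.2 CPM and then 153 and 267 CPM (log2 -1.001 ± 0.22, edgeR adjusted p = 0.291). Slc7a5, the light chain of the leucine carrier, held 163, 273 and 255 CPM and then 92.04 and 139 CPM, and its heavy chain Slc3a2 793, 1691 and 1182 CPM and then 627 and 912 CPM, the last with overlapping groups. Chac1, which degrades glutathione, held 77.7, 159 and 101 CPM and then 37.8 and 81.4 CPM, with overlapping groups. Atf4 itself stood at 768, 694 and 718 CPM and 599 and 519 CPM, lower in both 24 h samples. Without 24 h M1 the counts were 2 for each list, without 18 h M2 the synthetases had 3, and without 18 h M1 the ATF4 targets had 8.

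The 8-base C/EBP-ATF response element, TGATGNAA, was searched in the same promoter windows on both strands. It was held by 5 of 12 synthetase genes with a window (Aars, Gars, Iars, Tars and Yars) and by 7 of 20 ATF4 target genes (Trib3, Chac1, Asns, Slc7a11, Nupr1, Vldlr and Pck2), against 4.51% of all symbols. The ATF4 list was assembled as targets of that factor. The windows of Tars (chr15:11399659-11399718, minus strand, match 15 bases before the start site) and Chac1 (chr2:119351025-119351084, plus strand, match 193 bases before it) show 1 member of each list with a match, which reads on the opposite strand and is in capitals.
Tars: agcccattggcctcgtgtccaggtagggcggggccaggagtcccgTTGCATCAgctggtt
Chac1: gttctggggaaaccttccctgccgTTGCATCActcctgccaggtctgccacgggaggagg

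Ribosome biogenesis genes, whose products process ribosomal RNA in the nucleolus, also lay mostly lower. Of 32 tested, 7 were lower with p below 0.05 and 0 higher, and the median was -0.42. Within both M1 and M2, 20 were lower (18.0% of all genes). Their sum was 9895, 10715 and 9870.3 CPM at 18 h and 6495 and 7975 CPM at 24 h. Without 24 h M1 the count was 1, and without 18 h M2 it was 4. Nolc1, a nucleolar chaperone, held 240.1, 203 and 192 CPM and then 104 and 133 CPM (log2 -0.84 ± 0.23, edgeR adjusted p = 0.498). Rrs1, needed for the large subunit, held 218, 294 and 249.9 CPM and then 124 and 166 CPM (log2 -0.80 ± 0.22), and Wdr43 1237, 1280.4 and 1177 CPM and then 549.9 and 777 CPM. In each of these 3 genes the groups were apart. Ncl, the abundant nucleolin, held 2921, 3032 and 2625 CPM and then 1761 and 2383 CPM (log2 -0.46 ± 0.18). The 79 cytosolic ribosomal protein genes, the structural parts of the ribosome, lay the other way: 9 were higher with p below 0.05 and 0 lower, 40 were higher within both M1 and M2 against 28.2% of all genes, and the median was 0.16. Their sum was 71810.0, 59938 and 65484 CPM at 18 h and 86942 and 67542 CPM at 24 h, with overlap, and the count was 0 without 24 h M1 and 25 without 24 h M2. Rps29 held 2489.5, 2293 and 2389 CPM and then 4271 and 2657 CPM (log2 0.54 ± 0.21). Ribosomal protein genes have many near-identical copies in the genome, so their counts are uncertain.

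**Figure D2:**
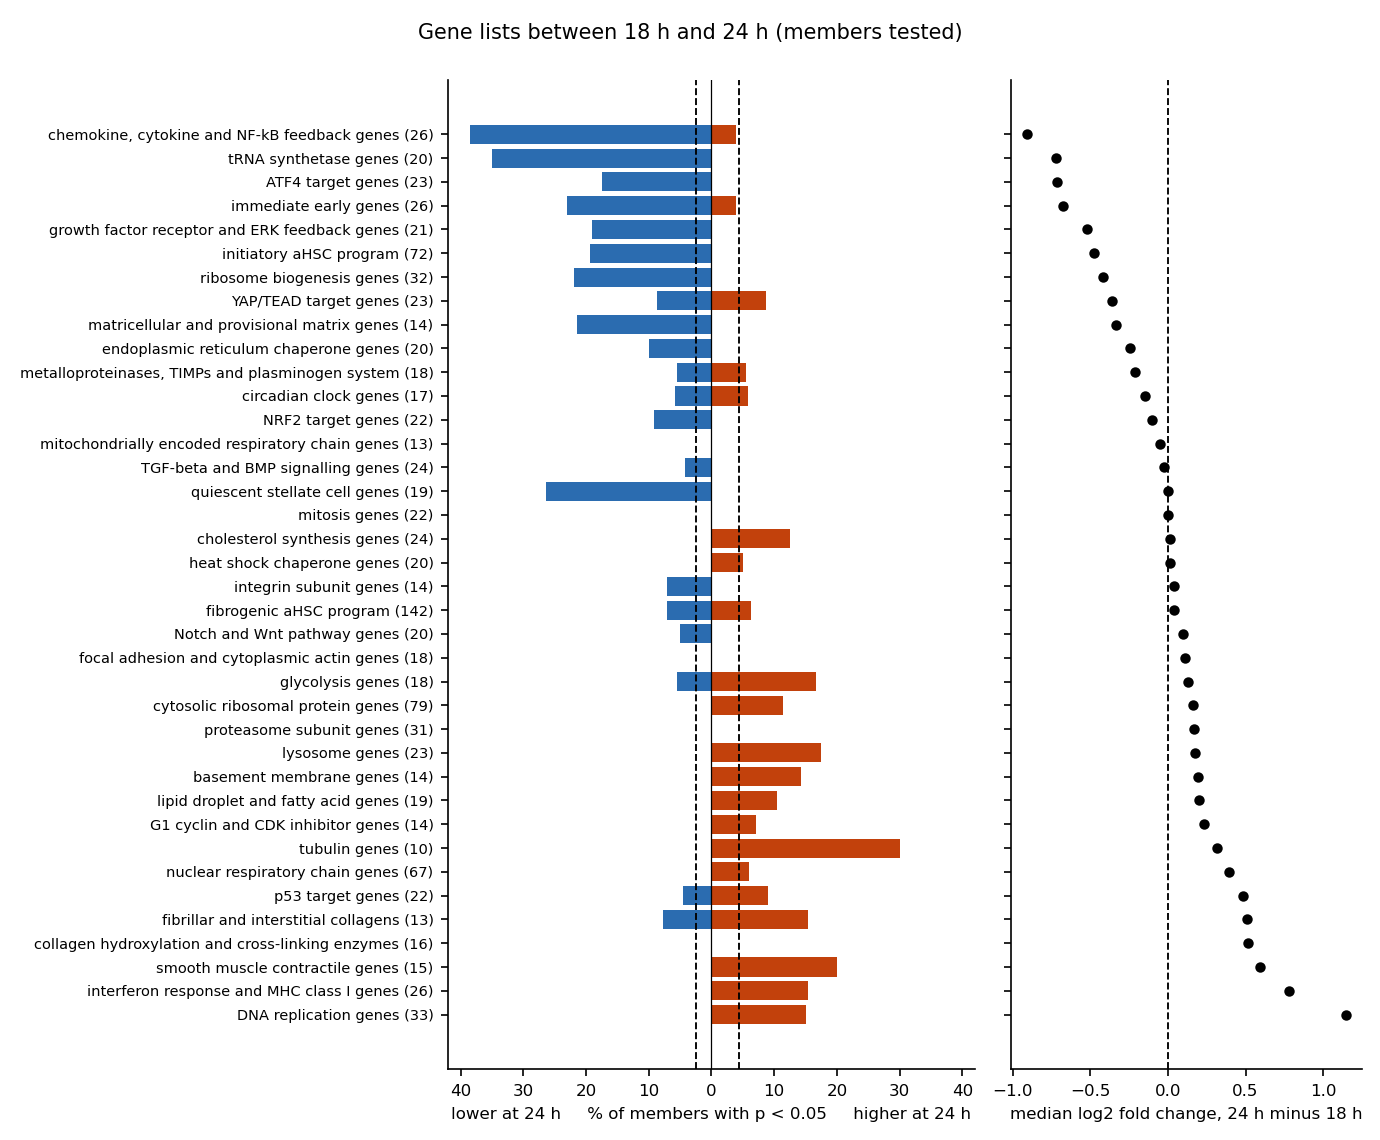
Left, share of tested members of each list with an unadjusted p below 0.05 between 18 h and 24 h, lower to the left (blue) and higher to the right (orange), with dashed lines at the shares over all genes (2.42% and 4.36%); right, median log2 fold change of the list. Chemokine, tRNA synthetase, ATF4 and immediate early genes have the lowest medians, and DNA replication, interferon and smooth muscle genes the highest.

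Growth factor signalling and YAP target genes had negative medians. Of 21 growth factor receptor and ERK feedback genes (25 listed), 4 were lower with p below 0.05 and 0 higher, and the median was -0.52. That count was 1 without 24 h M1, 1 without 18 h M2, 2 without 18 h M3 and 0 in the fit of the 5 samples alone. Ereg, an EGF receptor ligand, held 479, 540.3 and 658 CPM at 18 h and 274 and 435 CPM at 24 h (log2 -0.66 ± 0.24), and Vegfa, the endothelial growth factor, 36.3, 118 and 78.6 CPM and then 14.6 and 40.2 CPM. The Vegfa samples overlapped. Of 23 YAP/TEAD target genes (26 listed), 2 were higher and 2 lower, with a median of -0.36. The 2 lower became 0 without 18 h M2, 18 h M3, 24 h M1 or 24 h M2 and 5 without 18 h M1, the 2 higher became 0 without 18 h M1 and 1 without 18 h M2 or 24 h M1, and the median was -0.11 without 24 h M1. Ankrd1, a YAP target and initiation marker of the study, held 3016, 3488 and 4022 CPM and then 1926 and 2322 CPM (log2 -0.72 ± 0.54, edgeR adjusted p = 0.837). Ccn2, the connective tissue growth factor, held 8395, 13382 and 9764 CPM and then 5633 and 7272 CPM (log2 -0.70 ± 0.42). In Ankrd1 and Ccn2 both 24 h samples lay below all 18 h samples, by less than the test requires. Ptpn14, a phosphatase that restrains YAP, held 6.34, 9.12 and 13.4 CPM and then 48.1 and 20.8 CPM.

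The initiatory aHSC program of the study holds 72 genes that were up at 6 h and 12 h in these cultures and after acute injury in vivo, so its choice used neighbouring samples of the same series and its direction is not independent evidence. Of its 72 genes, 14 were lower at 24 h with p below 0.05 and 0 higher, and the median was -0.48. Within both M1 and M2, 42 were lower (18.0% of all genes). Its summed level was 29259, 40144 and 35647 CPM at 18 h and 22169.9 and 27670.4 CPM at 24 h. The count was 3 without 24 h M1 and 8 without 18 h M3. The fibrogenic aHSC program, chosen by the study in fibrotic livers, had 142 of 173 genes tested, with 9 higher, 10 lower and a median of 0.04. Without 24 h M1 these counts were 2 and 4, and without 18 h M3 they were 15 and 5. Of single members that the study names, Thbs1 (thrombospondin 1) held 335, 214 and 269 CPM and then 132 and 136 CPM (log2 -1.03 ± 0.44), Tnfrsf12a, the TWEAK receptor, 382, 407 and 372 CPM and then 354 and 300.3 CPM, and the proteoglycan gene Vcan 46.1, 31.2 and 29.2 CPM and then 46.1 and 48.2 CPM. Thbs1 and Tnfrsf12a lay below their 18 h values in both 24 h samples, and Vcan lay above them by less than its spread at 18 h.

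Genes of the quiescent cell were already far below their fresh level. Of 19 tested (20 listed), 5 were lower at 24 h with p below 0.05 and 0 higher, but the median was 0.00, and the count was 3 without 24 h M1. These included Rgs5, a regulator of G protein signalling in pericytes, with 296, 272 and 325 CPM and then 146 and 202 CPM (log2 -0.78 ± 0.21). Hgf, the hepatocyte growth factor, held 107, 147 and 68.9 CPM and then 53.6 and 56.9 CPM (log2 -0.96 ± 0.26), and Ecm1 312, 329 and 379.9 CPM and then 201 and 231 CPM (log2 -0.65 ± 0.20). These 3 genes had no overlap between the times. HSC markers differed in direction: the proteoglycan gene Dcn held 2079, 1525 and 1679 CPM and then 1286 and 1099 CPM (log2 -0.56 ± 0.16), Reln 200.1, 261 and 321 CPM and then 142 and 248 CPM, the intermediate filament gene Des 29.7, 28.4 and 49.5 CPM and then 76.6 and 68.3 CPM, and the retinoid enzyme gene Lrat 8.04, 8.42 and 5.21 CPM and then 10.3 and 11.4 CPM. Dcn lay lower and Des and Lrat higher in both 24 h samples, and Reln overlapped.

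Matrix genes were taken by class. Of 13 fibrillar and interstitial collagens, 2 were higher with p below 0.05 and 1, Col14a1, fell, 9 were higher within both M1 and M2, and the median was 0.51. The 2 higher became 1 without 24 h M1. Col1a1, the main chain of collagen I, held 109.9, 138 and 164 CPM at 18 h and 334 and 219.6 CPM at 24 h (log2 1.01 ± 0.36, edgeR adjusted p = 0.647), without overlap. The 16 collagen-modifying enzymes (17 listed) had a median of 0.52 with 0 members past p below 0.05, and Lox, the lysyl oxidase, held 4.39, 19.3 and 10.4 CPM and then 11.4 and 11.96 CPM. Among 14 basement membrane genes (15 listed) 2 were higher (median 0.20, and -0.03 without 18 h M1), including Sparc, a collagen-binding protein, at 1557, 1596 and 1845 CPM and then 2596 and 2305 CPM (log2 0.56 ± 0.15). Among 14 matricellular genes (15 listed) 3 were lower and 0 higher (median -0.34, and 0.27 in M1 and M2 alone), 1 lower without 24 h M2, including Tgfbi at 60.9, 84.9 and 97.01 CPM and then 41.2 and 29.2 CPM (log2 -1.21 ± 0.44). Tnc, tenascin C, held 1309, 2333 and 2432 CPM and then 825 and 1243 CPM, with both 24 h values below all of 18 h. The 18 metalloproteinase, TIMP and plasminogen genes (20 listed) had 1 higher and 1 lower. Timp1 was at 0 in 18 h M1 and at 38.8 and 40.2 CPM in M2 and M3, against 65.01 and 29.95 CPM at 24 h, so its groups overlapped.

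On the higher side, p53 target genes had 2 members above and 1 below with p under 0.05 among 22 tested, and 10 lay wholly above the 18 h samples, against 12.0% of all genes, and 13 were higher within both M1 and M2. Their median was 0.48, and their sum 4282, 4231 and 4406 CPM at 18 h and 5436 and 5078 CPM at 24 h. Cdkn1a, the CDK inhibitor p21 and a gene of the initiatory program, held 1205, 1060.0 and 1358 CPM and then 2019 and 1559 CPM (log2 0.57 ± 0.28, edgeR adjusted p = 0.72). Ccng1, cyclin G1, held 188, 149 and 142 CPM and then 262 and 309 CPM (log2 0.84 ± 0.31), and Phlda3, an inhibitor of AKT, 125, 94.8 and 104 CPM and then 266 and 179 CPM (log2 1.05 ± 0.46). The RNA-binding gene Zmat3 held 119.9, 118 and 113 CPM and then 175 and 211 CPM. All 4 genes were higher in both 24 h samples than in any 18 h sample. The 2 members with p under 0.05 became 1 without 18 h M2, 18 h M3 or 24 h M1. Of 14 G1 cyclins and CDK inhibitors (15 listed), 1 was higher (median 0.23). Cdkn2d, the inhibitor p19, had no count at 12 h or 18 h and 12.02 and 10.4 CPM at 24 h, without passing the adjusted threshold (edgeR adjusted p = 0.389), and Ccnd2 held 1490.1, 1527 and 1654 CPM and then 1658 and 1609 CPM.

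Mitosis genes were low at both times. The 22 mitosis genes (24 listed) summed to 26.6, 51.6 and 78.02 CPM at 18 h and 57.9 and 79.1 CPM at 24 h, against 689 ± 71.5 CPM (SD, n = 3) at 96 h, and 0 passed p below 0.05. Of 33 DNA replication genes (36 listed) 5 were higher, with a median of 1.15, but the 9 members of at least 20 CPM had a median of -0.23, and the count was 3 without 18 h M1, 18 h M2 or 24 h M2. Their sum was 473, 419 and 426 CPM and then 608 and 579.8 CPM. Pcna, the sliding clamp of the polymerase, held 88.7, 114 and 92.5 CPM and then 64.6 and 82.4 CPM.

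Of 67 nuclear genes of the respiratory chain, 4 were higher with p below 0.05, a share near that of all genes, and 0 lower. Both 24 h samples lay above all 18 h samples in 13 (12.0% of all genes) and below in 0. Within both M1 and M2, 34 were higher (28.2% of all genes) and 3 lower, and the median was 0.39, or 0.19 without 24 h M1. Their sum was 9101, 7216 and 8656 CPM at 18 h and 12107 and 9412 CPM at 24 h. The count of 4 was 13 without 24 h M2 and 7 without 18 h M3. The 13 genes of the mitochondrial genome had 0 past p below 0.05, a median of -0.05 and sums of 19549, 17502 and 19608 CPM and then 18387 and 18351 CPM. Of 18 glycolysis genes 3 were higher and 1 lower (median 0.13). Hk2, the inducible hexokinase, was the lower one, with 227, 283 and 316 CPM at 18 h and 105 and 115 CPM at 24 h (log2 -1.32 ± 0.31, edgeR adjusted p = 0.371). Gapdh, whose many copies make its count uncertain, held 104, 72.6 and 96.5 CPM and then 239 and 162 CPM (log2 1.14 ± 0.35).

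Of 26 interferon response and MHC class I genes, 4 were higher and 0 lower with p below 0.05, and the median was 0.78. Their sum overlapped, at 4356, 4878 and 4474 CPM and then 4316 and 4548 CPM. The count was 2 without 24 h M1 (median 0.39), 1 in the fit of the 5 samples alone and 7 with the M number as a block. H2-D1, an abundant MHC class I gene, held 1397, 1628 and 1543 CPM and then 1459 and 1312 CPM. Psmb9, a subunit of the immunoproteasome, had no count at 18 h and 10.3 and 0 CPM in M1 and M2 at 24 h, that is, counts in 1 library only. Of 10 tubulin genes 3 were higher and 0 lower (median 0.31), and 1 without 24 h M1. Tuba1b held 494, 539 and 667 CPM and then 933 and 780.3 CPM (log2 0.60 ± 0.18), and Tuba1a 121, 168 and 181 CPM and then 297 and 251 CPM (log2 0.80 ± 0.27). These 2 genes are nearly identical in coding sequence, so reads may be split between them. Of 15 smooth muscle contractile genes 3 were higher (median 0.59), 1 without 24 h M1 (median 0.07) and 7 without 24 h M2. Their sum overlapped, at 6589, 7928 and 7383 CPM and then 6907 and 7243 CPM. Acta2, the smooth muscle actin of myofibroblasts, held 149, 92.5 and 196 CPM and then 314 and 144 CPM, with overlap, and reached 3169 ± 856 CPM (SD, n = 3) at 96 h. Of 23 lysosome genes (24 listed) 4 were higher (median 0.17), which became 1 without 18 h M1 or 24 h M1, 2 without 18 h M2 and 0 in the fit of the 5 samples alone.

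In each of the other lists at most 3 members had a p below 0.05 in either direction. Of 20 endoplasmic reticulum chaperones 2 were lower and 0 higher, a count that was 0 without 24 h M1 (median -0.25, then 0.09), 1 without 18 h M2, 4 without 24 h M2 and 5 without 18 h M1. Their values included Hspa5 at 1844, 4268 and 3375 CPM and then 1310.1 and 2450.0 CPM and Selenos at 209, 324 and 302 CPM and then 122 and 157 CPM. Of 22 NRF2 targets 2 were lower and 0 higher, 0 lower without 24 h M1 and 1 without 18 h M2, and Hmox1, which degrades heme, held 881, 1200.4 and 1092 CPM and then 542 and 633 CPM (log2 -0.85 ± 0.31). Both 24 h values of Hmox1 lay below all 18 h values. Of 24 cholesterol synthesis genes 3, of 19 lipid genes (24 listed) 2 and of 20 heat shock chaperones 1 were higher, and 0 were lower in each. The 3 became 1 without 24 h M2, and the 2 lipid genes became 1 without 18 h M2, 18 h M3 or 24 h M1. Of 24 TGF-beta and BMP genes (27 listed) 1 was lower, Inhba, at 544, 732 and 738 CPM and then 400.1 and 449 CPM (log2 -0.66 ± 0.28). Jag1, a Notch ligand, was the 1 lower member of 20 Notch and Wnt genes (26 listed), at 77.3, 152 and 95.2 CPM and then 50.4 and 56.6 CPM (log2 -1.02 ± 0.35). Of 17 circadian genes (20 listed) 1 was higher and 1 lower, of 14 integrins (15 listed) 1 was lower, and 0 of 31 proteasome subunits and 0 of 18 focal adhesion and actin genes passed p below 0.05.

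The difference between the times could be taken separately in M1 and in M2. Over the 15138 genes the 2 differences correlated with Pearson r = 0.111, over the 6725 genes of at least 20 CPM with 0.146, and over the 2042 genes of at least 100 CPM with 0.234. These are descriptions across genes, which share the normalization and the sequencing depth of each library. Both differences were positive in 4273 genes (28.2%) and negative in 2720 (18.0%). In the lists, 16 of 26 immediate early genes, 16 of 23 ATF4 targets and 15 of 20 synthetases were lower in both, and 40 of 79 ribosomal protein genes and 34 of 67 nuclear respiratory genes were higher in both.

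**Figure D3:**
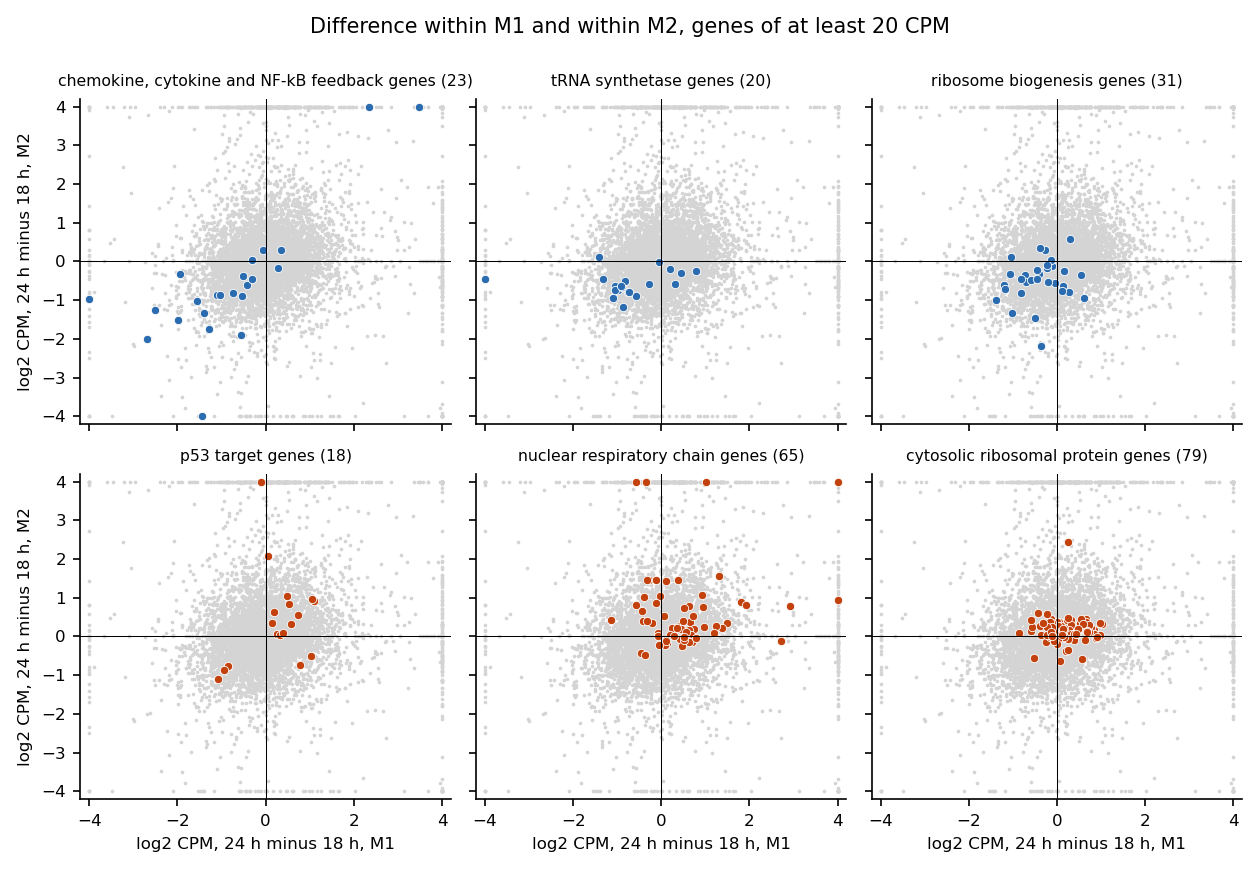
Difference in log2 CPM (prior count 2) of 24 h minus 18 h within M1 (horizontal) and within M2 (vertical) for genes of at least 20 CPM (grey) and the members of 6 lists (coloured, number in brackets). The 622 genes beyond 4 on either axis are drawn at the edge; chemokine, synthetase and ribosome biogenesis genes lie mostly in the lower left part, and p53, respiratory and ribosomal protein genes to the upper right of the centre.

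A second reference used the 12 h samples as well. In the same fit, 24 h was compared with the mean of 12 h and 18 h, which adds 3 samples and shares the 18 h and 24 h samples with the comparison above. A difference from this mean also takes in change between 12 h and 18 h, so it is not a change after 18 h alone. Here 153 genes passed (1.01% of those tested), of which 77 rose (0.509%) and 76 fell (0.502%). At an unadjusted p below 0.05, 1240 genes (8.19%) were higher and 583 (3.85%) lower, together 12.0%. Scaled by library size alone, 94 rose and 49 fell. The counts leaned on single libraries: 12 and 23 without 24 h M1, 34 and 20 without 24 h M2, 116 and 81 without 12 h M1, 55 and 43 without 12 h M2, and 47 and 46 without 12 h M3. DESeq2 called 269 and 291, and the fit of the 8 samples alone 20 and 55.

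Of 22 p53 targets tested, 4 rose against 12 h and 18 h (0.509% of all genes) and 1 fell (0.502%). Phlda3 held 28.03, 22.6 and 17.6 CPM in the 12 h libraries before the 18 h and 24 h values given above (log2 2.17 ± 0.38, edgeR adjusted p = 0.0184). Ccng1 held 34.7, 47.7 and 48.7 CPM at 12 h (log2 1.77 ± 0.26, edgeR adjusted p = 0.00433), Zmat3 34.3, 34.9 and 66.05 CPM (log2 1.41 ± 0.33) and Cdkn1a 798, 445 and 421 CPM (log2 1.13 ± 0.24, edgeR adjusted p = 0.0471). In all 4 the samples were ordered by time, 12 h lowest and 24 h highest, without overlap. Pml had the smallest p of the genes named as rising, from 11.8, 8.48 and 5.20 CPM at 12 h (log2 2.69 ± 0.28, edgeR adjusted p = 0.000498). Timp2 rose from 161, 133 and 166 CPM (log2 1.45 ± 0.18, edgeR adjusted p = 0.00183), and so did Gcc2 (log2 1.83 ± 0.24), Crip2 (log2 1.99 ± 0.29) and Emp3 (log2 1.32 ± 0.24). Collagen I also passed here: Col1a1 held 52.1, 87.5 and 85.5 CPM at 12 h (log2 1.45 ± 0.30, edgeR adjusted p = 0.0471). Lgals1, galectin 1, held 78.1, 128 and 131 CPM at 12 h, 172, 104 and 168 CPM at 18 h and 440.1 and 346 CPM at 24 h (log2 1.61 ± 0.30, edgeR adjusted p = 0.0253). Tuba1a (log2 1.001 ± 0.24) and Gapdh (log2 1.21 ± 0.30) rose too, with the same doubt about copies.

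Further genes with the largest increases included several of low level. Samhd1, which cleaves dNTPs, held 8.57, 2.04 and 1.20 CPM at 12 h, 12.4, 5.44 and 5.96 CPM at 18 h and 41.4 and 27.4 CPM at 24 h (log2 2.63 ± 0.58). Ptpn14 held 5.56, 1.87 and 1.33 CPM at 12 h (log2 2.70 ± 0.64). Gprc5b, an orphan receptor, had counts in 1 of the 6 earlier libraries and 26.4 and 34.5 CPM at 24 h. The same group held Fendrr, a long non-coding RNA of mesoderm (23.4 and 23.3 CPM at 24 h), Triobp (40.6 and 54.6 CPM), Anp32a (44.2 and 26.5 CPM), Nacc2 (27.5 and 17.7 CPM) and Dynlt1a (55.6 and 58.1 CPM). Both 24 h samples of these genes lay above every 12 h and 18 h sample, which was a condition of their choice.

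Of 26 chemokine, cytokine and NF-kB feedback genes tested, 4 fell against 12 h and 18 h (0.502% of all genes) and 0 rose (0.509%). Ccl2 held 6120.1, 5329 and 5962 CPM at 12 h (log2 -2.09 ± 0.29, edgeR adjusted p = 0.00305), Cxcl1 8989, 3471 and 4577 CPM (log2 -1.85 ± 0.42), Ccl7 727, 556 and 714 CPM (log2 -1.89 ± 0.38) and Vcam1 254, 301 and 373 CPM (log2 -1.19 ± 0.24). Of the immediate early genes, Egr1 (343, 558 and 637 CPM at 12 h, 81.4, 152 and 81.2 CPM at 18 h and 41.2 and 80.5 CPM at 24 h), Fos and Junb fell, with log2 differences of -1.93, -2.28 and -1.02, and Egr2, at 32.9, 45.1 and 45.8 CPM at 12 h, fell to the 3 and 0 counts given above. For Junb, 1230.5, 827 and 1001 CPM at 12 h became 359, 479.7 and 406 CPM at 18 h and 358 and 284 CPM at 24 h, so most of its difference lay before 18 h. The ATF4 targets Slc7a1, Slc7a5, Slc3a2 and Chac1 fell, with log2 differences of -1.38, -1.50, -1.15 and -1.80, Chac1 going from 341, 497 and 322 CPM at 12 h to the 18 h and 24 h levels above. The synthetases Eprs (-1.13) and Tars (-1.17) and the biogenesis genes Rrs1 (-1.01), Nolc1 (-1.12) and Wdr43 (-1.11) fell as well (log2 differences in parentheses).

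Genes of quiescence and metabolism were also in this group. Rgs5 held 657, 769.8 and 848 CPM at 12 h (log2 -1.45 ± 0.20, edgeR adjusted p = 0.00243), Ecm1 1188, 1082 and 925 CPM (log2 -1.48 ± 0.19) and Hgf 149, 177 and 148 CPM (log2 -1.24 ± 0.24). Also lower were Col14a1 (log2 -2.32 ± 0.24), Dcn (log2 -1.08 ± 0.15) and Tgfbi (log2 -1.73 ± 0.42). Hk2 held 789, 604 and 548 CPM at 12 h (log2 -1.94 ± 0.30, edgeR adjusted p = 0.00692) and Hmox1 1839, 1817 and 1820.4 CPM (log2 -1.24 ± 0.29). Steap4, a metalloreductase, held 129, 211 and 211 CPM at 12 h, 64.3, 30.7 and 33.1 CPM at 18 h and 25.96 and 19.4 CPM at 24 h (log2 -1.97 ± 0.34). Hhip, which binds hedgehog ligands, held 46.8, 32.6 and 45.9 CPM, 62.9, 44.4 and 27.7 CPM and 2.79 and 8.48 CPM at the 3 times, a step that lay after 18 h (log2 -2.92 ± 0.65). Gsn, an actin-severing protein, held 89.9, 99.4 and 184 CPM, 42.4, 82.3 and 40.97 CPM and 10.3 and 14.1 CPM (log2 -2.75 ± 0.49). The GTPase gene Gem (-2.55), Lhfpl2 (-2.08), the adhesion gene Alcam (-2.05) and the Golgi gene Golga5, which had no count at 24 h, completed the genes with the largest falls.

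**Figure D4:**
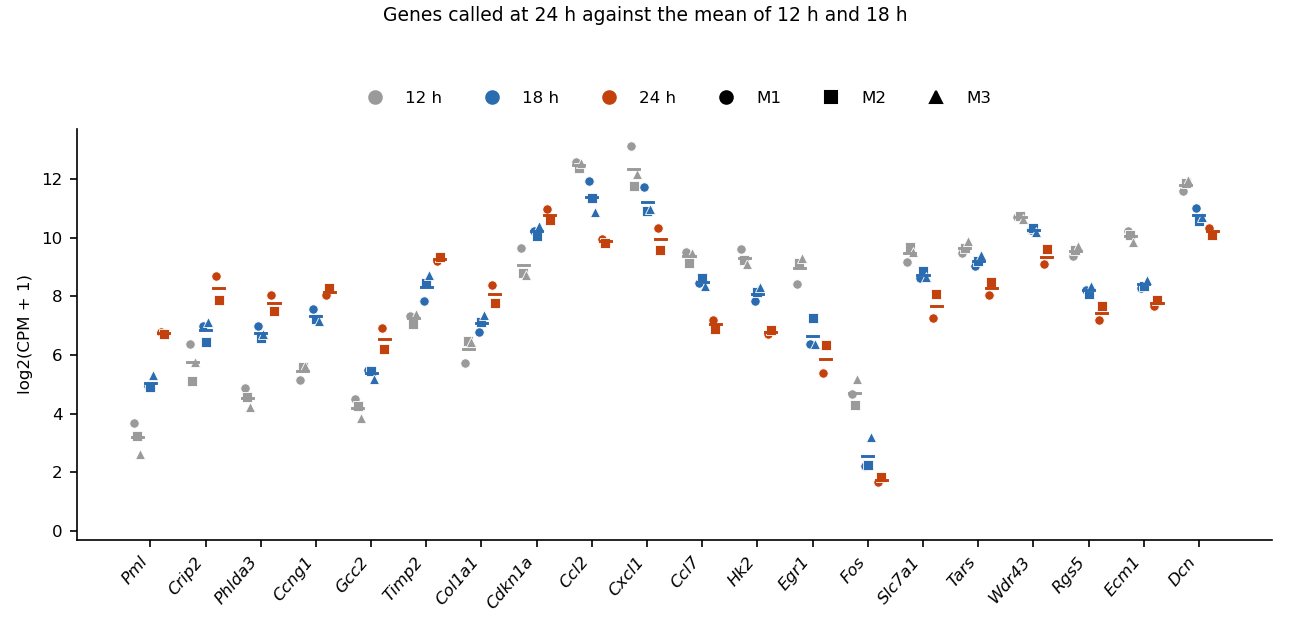
Level of 20 genes called at 24 h against the mean of 12 h and 18 h, as log2(CPM + 1) per library at 12 h (grey), 18 h (blue) and 24 h (orange), with circles for M1, squares for M2, triangles for M3 and bars at the mean of the logs. In the rising genes from Pml to Cdkn1a and in the falling genes from Ccl2 to Dcn, 18 h lies between 12 h and 24 h and no 2 times overlap. The 20 genes are a chosen part of those called, and not all others had this order. Times overlapped in Hhip, Lgals1, Chac1 and Slc3a2, for example.

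Over the whole course, the lists that were lower at 24 h had peaked at different times. The chemokine sum was 6691 CPM in fresh cells, 31416 at 3 h, 27334 ± 5419 at 12 h (SD, n = 3), 16754 ± 2398 at 18 h, 11078 ± 485 at 24 h (SD, n = 2) and 3569 at 96 h. It was highest at 3 h. The immediate early genes were highest in the sorted cells before culture (20328 CPM) and stood at 3170.4 CPM at 24 h, close to 2991 CPM at 96 h. ATF4 targets, synthetases and ribosome biogenesis genes were highest at 12 h, at means of 8830.4, 7585 and 11626 CPM. At 24 h these 3 sums were 3229, 3588 and 7235 CPM, still above 1656, 2205 and 3213 CPM at 96 h. The p53 target sum, by contrast, had its highest mean at 24 h, with 3958 CPM at 12 h, 5257 CPM at 24 h and 3866 CPM at 96 h. The fibrillar and interstitial collagens had their lowest mean at 18 h, with sums of 6829 CPM in fresh cells, 1126 at 18 h, 1372 at 24 h and 4679.8 at 96 h. Members differed between the ends of the course. Col14a1 held 2056 and 2452 CPM in fresh cells and 129 to 135 CPM at 96 h. Col1a1 held 447 and 161 CPM in fresh cells and 1163 to 1570 CPM at 96 h.

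**Figure D5:**
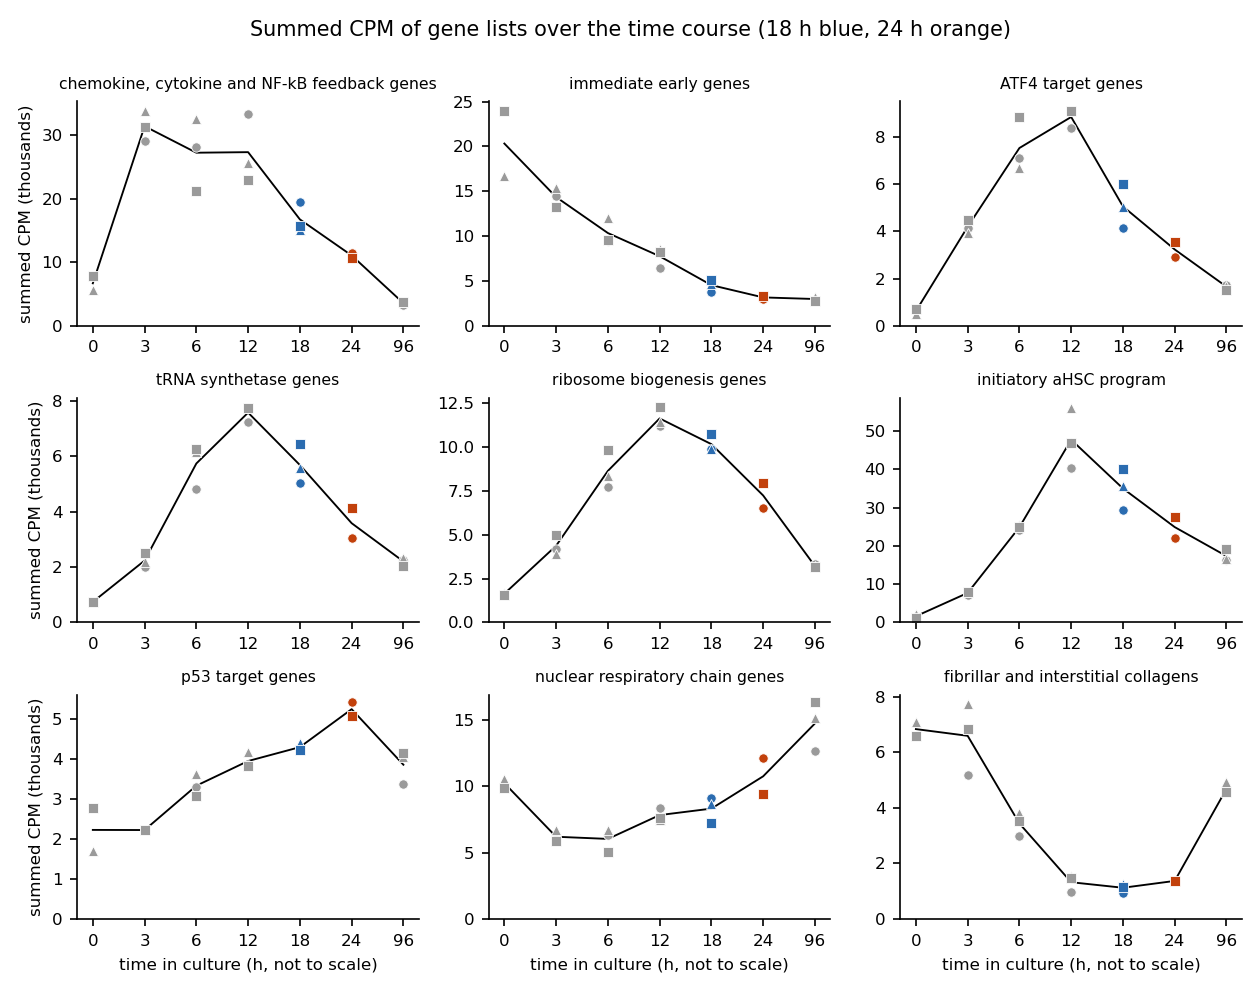
Summed CPM of 9 gene lists (vertical axes scaled as labelled, starting at 0) against time in culture (not to scale), 1 point per library (circles M1, squares M2, triangles M3) and a line through the means. The 18 h points are blue and the 24 h points orange; the chemokine, immediate early, ATF4, synthetase, ribosome biogenesis and initiatory sums are past their peak at 24 h, and the p53 target sum is at its highest.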

How the data were processed

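Single-end 3′ QuantSeq FWD libraries of 19 HSC samples were analysed. The deposited table holds whole-number counts for each gene, which the authors did not normalize; their processing notes name STAR, StringTie and mm10, and the counting tool and annotation release are not given in the sources used here. Tests used edgeR 4.0.16, with limma 3.58.1, and DESeq2 1.42.0 under R 4.3.3, and plots were drawn with matplotlib 3.10.9. Genes passing filterByExpr (15138 of 55487) were TMM scaled, and 24 h was tested against 18 h with edgeR's quasi-likelihood F test in 1 fit of all 19 samples with time as the only factor. Log2 CPM used a prior count of 2. Standard errors are those of the log2 fold change. Time points and M numbers were taken from the labels. The script was tested on simulated data.

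The comparison, the gene lists and the named genes were chosen with earlier results of these data known. Named were, in both contrasts, up to 12 called genes per direction by fold change (at least 20 CPM in the higher group, groups apart, no predicted genes), filled to 6 by smallest p, then up to 4 called or 2 abundant members per list, and the study's markers. Mxra8, Aard and Bud13, the motifs and the promoters shown were added after their values were seen. The M number marks a shared isolation date (M1 and M3 share 1): residuals of same-numbered samples correlated by 0.0143 on average over 51 pairs (-0.072 to 0.0821), and at 18 h and 24 h by 0.0326 in M1 and 0.0437 in M2. The 2 samples at 24 h have exactly opposite residuals, which fixed the crossed pairs at -0.0326 (18 h M1 with 24 h M2) and -0.0437 (18 h M2 with 24 h M1). The 18 h and 24 h values are therefore not separate measures of a shared isolation. Some genes of the named-gene rule, 1 of them called lower at 24 h, are not reported here, but counts and sums include them.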

Additional observations from a re-analysis of the deposited data

How the results depend on the processing

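The number of genes past the threshold between 18 h and 24 h was small and moved with the fit, from 2 higher and 4 lower. DESeq2 gave 159 and 108, the M number as a replicate block 1 and 1, M1 and M2 alone with that block 0 and 0 (247 and 219 at an unadjusted p below 0.05), and the 5 samples alone 0 and 0 by edgeR (404 and 323 at that level). The isolation date as a covariate left 2 lower, as did an adjusted p below 0.05. Against the mean of 12 h and 18 h the counts were 77 and 76, and against 12 h, a reference added after the data were seen, 132 and 186. Leaving out 1 library in turn gave 2 to 17 higher (6 without 18 h M2, 12 without 18 h M1 and 17 without 18 h M3) and 4 to 15 lower (7 without 18 h M2 or M3 and 15 without 24 h M1). The cause of these differences was not tested.

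The counts of 77 and 76, also computed with alternatives added after the data were seen, became 269 and 291 with DESeq2, 0 and 0 by edgeR for M1 and M2 alone with the block (565 and 594 at an unadjusted p below 0.05), 30 and 37 at an adjusted p below 0.05, 54 and 74 with the block, 20 higher in the fit of the 8 samples alone, and 49 lower when scaled by library size. Leaving out 1 library gave 12 to 116 higher and 20 to 83 lower. Library-size, RLE and unfiltered fits kept 2 and 4 between 18 h and 24 h, and shared all of these genes with those reported except Bud13, which the unfiltered fit did not call (edgeR adjusted p = 0.202). The scalings moved the median log2 fold change of all genes by at most 0.016. None of the 40 log2 fold changes between 18 h and 24 h printed in the report changed sign under these alternatives. In each of these genes both 24 h samples lay on 1 side of all 18 h samples, so leaving out a library could hardly change the sign. The unchanged signs therefore say little about how stable these differences are. A depth of 3662234 to 6979382 counts and 2 samples at 24 h limit what can be shown for genes of few counts.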
